A study of Mus musculus with 40 samples.

Results

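Leukocyte chemokine receptors are represented here by 9 genes, Ccr1, Ccr2, Ccr7, Cxcr2, Cxcr3, Cxcr4, Cxcr5, Cx3cr1 and Cxcr6, taken by gene name from a whole-blood table of 54532 genes. All 9 were found, each in 1 row, and all 9 passed the filter on low values (at least 1 FPKM in at least 3 libraries). FPKM here are fragments per kilobase on the library scale that the authors deposited. Chemokine receptors are G-protein-coupled receptors that read gradients of chemokines, small secreted proteins, and steer leukocytes between marrow, blood, lymphoid organs and inflamed tissue. Each blood cell type carries its own set: neutrophils carry CXCR2, classical monocytes CCR2, patrolling monocytes CX3CR1, B cells CXCR5, naive T cells and B cells CCR7, and activated or memory T cells and natural killer cells CXCR3 and CXCR6. CXCR4 holds many of these cells in marrow through its ligand CXCL12. The set of receptor transcripts in blood thus depends both on which cells circulate and on how much of each transcript they hold, and in whole blood these cannot be told apart.

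RNA came from 40 samples of orbital blood of female mice aged 7 weeks, in 8 groups. Each sample is counted below as 1 separate mouse. Only the labels' numbering bears on this, and it does not settle whether day 4 and day 6 samples share animals. Uninduced mice were 3 of genotype Ifnar1+/+ and 3 labelled Ifnar1-/-, which would lack a chain of the type I interferon receptor in all cells. Ifnar1+/+ mice had PBS or spermine, a polyamine, for 3 days and then pristane, a mineral-oil hydrocarbon used to model lupus, and were bled on day 4 or day 6 (6 mice in each of these 4 groups). Mice labelled Ifnar1-/- had PBS and pristane and were sampled on day 4 or day 6 (5 in each group). For uninduced mice no pretreatment is named in the labels, so the effects of pristane and of the PBS before it cannot be told apart in comparisons with them. Libraries held 9156431 to 14058050 fragments, of which 26.5 to 62.2 percent came from hemoglobin genes. The deposited scale did not follow depth alone: 1 read of a 2 kb gene counted as 0.0189 to 0.103 FPKM. The lowest value was in spermine day 4 mouse 5 (12735233 fragments) and the highest in Ifnar1+/+ PBS day 4 mouse 1 (9737447 fragments). Ifnar1 itself stood at 18.1 ± 2.76 FPKM (mean ± SD, n = 13) in mice labelled Ifnar1-/- against 8.36 ± 1.01 (n = 27) in Ifnar1+/+ mice, so its whole-gene value does not show loss of the transcript, and the genotype is given as labelled. Markers of neutrophils, monocytes, T cells, B cells and red cell precursors were all present, as whole blood should hold.

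Over the 40 libraries Cxcr2 was the most abundant receptor transcript, with a mean of 59.6 FPKM, a unit that corrects for gene length. Ccr7 followed at 49.2, Cxcr4 at 25.9 and Cxcr5 at 21.7 FPKM. Ccr1 stood at 18.8, Ccr2 at 17.9 and Cx3cr1 at 5.10 FPKM. Cxcr6 (2.23 FPKM) and Cxcr3 (2.05) were low, with 9 to 104 and 8 to 118 fragments a library, so counting error alone blurs their values. The spread across mice also differed: Cxcr2 ranged 8.73-fold from its lowest to its highest library, against 2.29-fold for Ccr7 and 2.37-fold for Cxcr5.

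**Figure D1:**
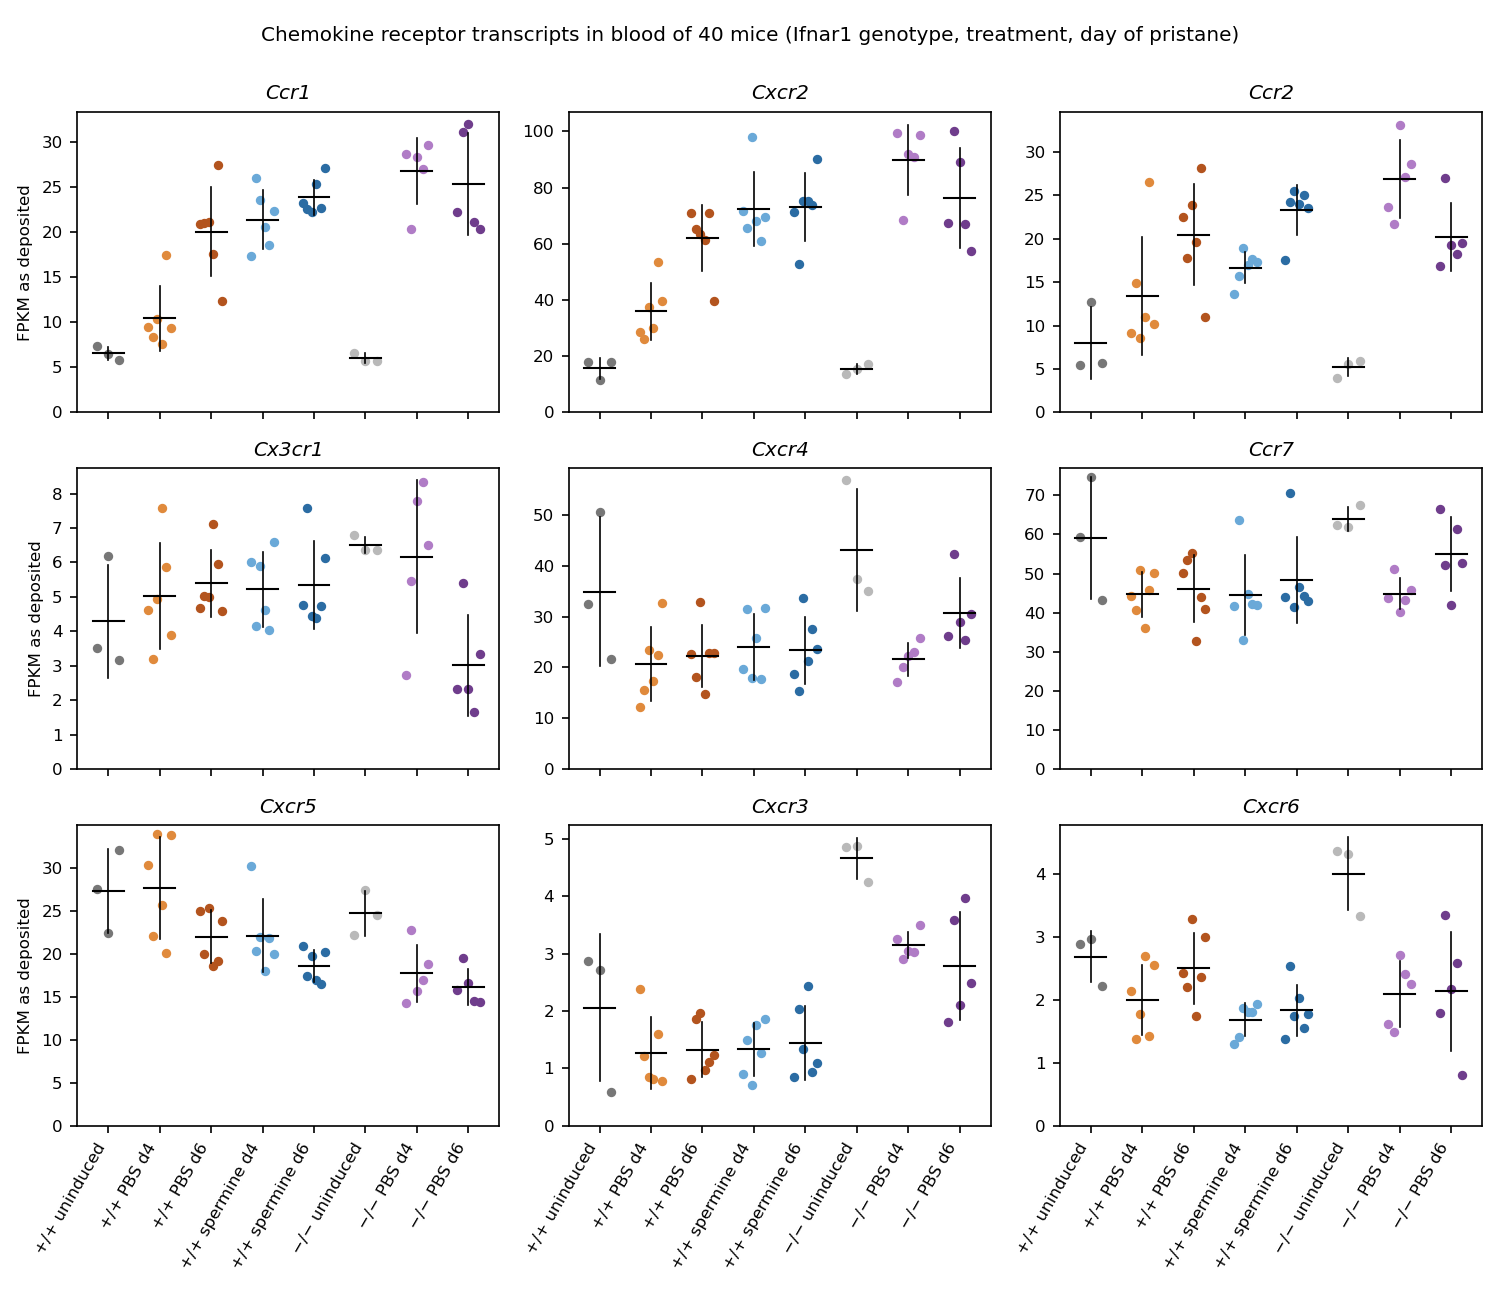
FPKM as deposited (y axes, from 0) of the 9 receptor genes in every mouse (points), by group (x axis; +/+ and −/− give the labelled Ifnar1 genotype, d4 and d6 the day of pristane); horizontal bars are means and vertical bars ± SD. Ccr1 and Cxcr2 stand lowest in both uninduced groups, where no mouse exceeds 7.36 and 17.9 FPKM, while Ccr7 and Cxcr4 have their highest means there.

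The receptors of neutrophils and classical monocytes rose with pristane. Cxcr2 binds the neutrophil chemokines CXCL1, CXCL2 and CXCL5, Ccr1 binds CCL3, CCL5, CCL6 and CCL9, and Ccr2 binds CCL2 and CCL7 and lets monocytes leave the marrow. Ccr1 and Ccr2 lie in a cluster of receptor genes on mouse chromosome 9 (GRCm38), Ccr1 at 123962124 to 123968692 on the minus strand and Ccr2 at 124101950 to 124113557 on the plus strand, with 133257 bases between them. Cxcr2 lies on chromosome 1 at 74153989 to 74161246 on the plus strand. For Ccr1 and Cxcr2, on which most comparisons below turn, the 250 bases before the RefSeq start are shown (GRCm38.p6, 5′ to 3′ on the gene's strand, with no part in capitals because neither holds a motif of the 5 first searched). The RefSeq start of Ccr1 is the start of the gene given above, and that of Cxcr2 lies 5 bases inside it.
Ccr1, chr9:123968693-123968942, minus strand: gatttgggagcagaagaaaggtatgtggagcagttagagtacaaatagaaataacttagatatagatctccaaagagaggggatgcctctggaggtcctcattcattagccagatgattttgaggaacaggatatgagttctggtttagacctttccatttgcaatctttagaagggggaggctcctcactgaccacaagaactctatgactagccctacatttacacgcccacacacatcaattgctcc
Cxcr2, chr1:74153744-74153993, plus strand: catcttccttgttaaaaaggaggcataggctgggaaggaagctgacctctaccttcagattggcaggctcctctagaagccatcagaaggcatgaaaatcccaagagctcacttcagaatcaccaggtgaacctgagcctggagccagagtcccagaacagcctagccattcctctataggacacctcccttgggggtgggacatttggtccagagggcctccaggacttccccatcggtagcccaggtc
In the 7 members with an entry (Ccr7 and Cxcr5 were not matched), 5 motifs were searched on both strands of this window. For Ccr2, Cxcr3 and Cx3cr1 the RefSeq start lies 233, 122 and 1583 bases inside the gene as the files give it, so much or all of their windows is within the gene rather than before it, and they are not printed. The 5 motifs included the interferon-stimulated response element (ISRE, in 2.98 percent of 32851 promoter windows of that length) and the STAT motif TTCNNNGAA (7.02 percent). The others were the PU.1 motif GAGGAAGT (2.44 percent), the C/EBP motif TTGCNNAA (9.56 percent) and an NF-kB motif (0.0974 percent). The NF-kB motif was searched as 1 fixed string of letters, and its other forms were not searched. The search gave 1 match, GAGGAAGT on the opposite strand in the Cxcr3 window, at a place inside the gene as the files give it. After that result was known a shorter PU.1 core, GAGGAA, was also tried: it matched in Ccr1, Cxcr2 and Cxcr3, 3 of 7 members, and is in 23.3 percent of all windows. A match is a string of letters and not a site, and no value here bears on binding.

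Cxcr2 in uninduced Ifnar1+/+ mice was 17.9, 11.5 and 17.9 FPKM. On day 4 of PBS and pristane the 6 mice ran from 26.2 through a median of 33.7 to 53.5 FPKM, and on day 6 from 39.6 through 64.5 to 71.1. No day 4 or day 6 mouse overlapped the uninduced ones. The log2 change was 1.12 ± 0.20 on day 4 (± SE, here and below on log2(FPKM + 1); limma, adjusted p = 0.000882, n = 6 and 3) and 1.91 ± 0.20 on day 6 (adjusted p = 3.80e-08). It was the only member of 9 called on day 4, an adjusted p under 0.05 being the threshold throughout, where 2.1 percent of the 11829 genes tested were called (1.68 percent higher). With only these 2 groups in the fit, the day 4 call was lost (adjusted p = 0.108), as it was with libraries scaled to a fixed total without hemoglobin (0.275) or with it (0.697).

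Ccr1 in uninduced Ifnar1+/+ mice was 7.36, 6.45 and 5.86 FPKM, and reached 7.54, 9.42 and 17.5 (lowest, median, highest of 6) on day 4 and 12.3, 21.0 and 27.4 on day 6. All treated mice were above all uninduced mice on both days. The change was 0.55 ± 0.19 on day 4, which was not called (limma, adjusted p = 0.128), and 1.45 ± 0.19 on day 6 (adjusted p = 1.45e-06). Ccr2 stood at 5.51, 12.7 and 5.66 FPKM before induction, with mouse 2 apart from the others, and at 11.01, 21.1 and 28.1 on day 6. These groups overlapped by that 1 mouse, and Ccr2 rose by 1.30 ± 0.25 (adjusted p = 0.000622). On day 4 its change of 0.67 ± 0.25 was not called (adjusted p = 0.181), but without uninduced mouse 2 it was (0.0381). In all, 3 of 9 receptors rose and 0 fell on day 6, where 8.17 percent of genes were called (5.59 percent higher). With a fixed total the count was 2 without hemoglobin and 1 with it: Ccr2 lost its call in both (0.12 and 0.331) and Ccr1 with hemoglobin (0.153). The groups did not overlap for 2 of 9 members on either day, against 6.05 percent of genes on day 4 and 12.1 percent on day 6.

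In mice labelled Ifnar1-/- the same 3 genes rose on both days. Cxcr2 went from 13.8, 15.6 and 17.3 FPKM in uninduced mice to 99.3, 68.5, 92.1, 90.8 and 98.6 on day 4 and 67.5, 100.2, 89.0, 66.9 and 57.6 on day 6. The uninduced mice were far below every other mouse. Its log2 change was 2.45 ± 0.21 on day 4 (limma, adjusted p = 1.30e-10, n = 5 and 3) and 2.20 ± 0.21 on day 6 (2.94e-09). Ccr1 rose by 1.98 ± 0.20 and 1.89 ± 0.20, from 6.02 ± 0.54 FPKM (n = 3) to 26.8 ± 3.70 and 25.4 ± 5.67 (n = 5). Ccr2 rose by 2.17 ± 0.26 and 1.77 ± 0.26, from 5.19 ± 1.03 to 26.8 ± 4.45 and 20.2 ± 3.92 FPKM. The uninduced mice did not overlap the others for any of the 3 genes. With a fixed total including hemoglobin, Ccr2 lost its day 6 call (adjusted p = 0.0587).

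Neutrophil markers moved with these receptors. Of 7 such genes 6 were higher on day 4 and 7 on day 6 in Ifnar1+/+ mice, and 7 on both days in mice labelled Ifnar1-/-. Their median log2 changes were 1.87, 3.06, 3.33 and 3.32, each larger than that of Cxcr2 in the same comparison. Csf3r, the neutrophil growth factor receptor gene, changed less than Cxcr2 on each occasion, by 0.36 ± 0.21 (not called), 0.68 ± 0.21, 1.499 ± 0.22 and 1.18 ± 0.22. The summed marker level ran from 368 to 637 FPKM in uninduced Ifnar1+/+ mice and from 1421 to 5409 on day 6 of PBS and pristane. Classical (Ly6C-high) monocyte markers were higher for 2 of 6 on day 4 and 5 of 6 on day 6 in Ifnar1+/+ mice, and for 6 of 6 and 5 of 6 in mice labelled Ifnar1-/-. The part of these cell types in the receptor changes was not tested.

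**Figure D2:**
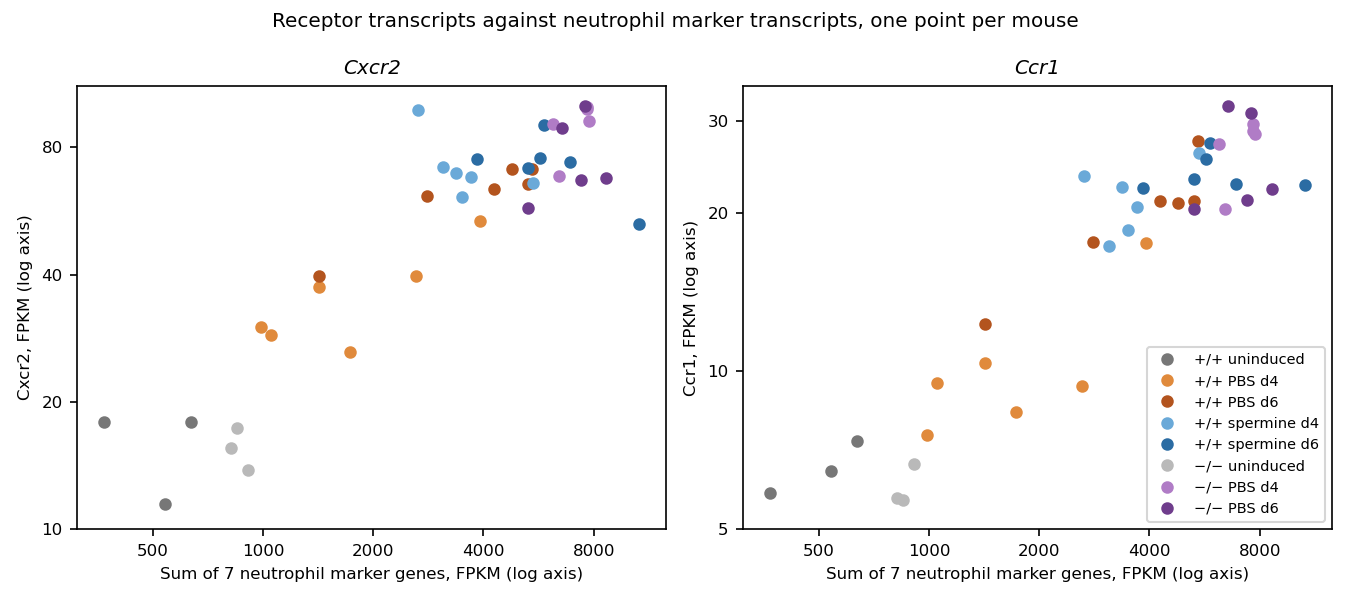
Cxcr2 (left) and Ccr1 (right) in FPKM against the summed FPKM of 7 neutrophil marker genes, both on log axes, with 1 point per mouse coloured by group. The 6 uninduced mice are lowest on both axes, while among treated mice the order differs: spermine day 6 mouse 2 has the most marker transcripts (10647 FPKM) with Cxcr2 at 52.7 FPKM, and spermine day 4 mouse 3 has 2650 FPKM of markers with Cxcr2 at 97.9.

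The other 6 receptors, those of lymphocytes and patrolling monocytes and the marrow retention receptor Cxcr4, went down or were not called. In Ifnar1+/+ mice none of the 6 was called on either day. Cxcr4 had the largest of these changes, -0.71 ± 0.27 on day 4 and -0.58 ± 0.27 on day 6 (limma, adjusted p = 0.174 and 0.184), and its groups overlapped. In mice labelled Ifnar1-/-, 2 fell on day 4 and 3 on day 6. With the 3 rising genes this made 5 of 9 receptors called on day 4, where 8.12 percent of genes were called (6.64 percent higher, 1.49 lower), and 6 of 9 on day 6, where 11.8 percent were (8.57 higher, 3.19 lower). The groups were apart for 7 and 6 members, against 23.1 and 20.8 percent of genes.

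Cxcr4 in mice labelled Ifnar1-/- was 56.9, 37.3 and 35.1 FPKM before induction and 17.2, 20.0, 22.2, 23.0 and 25.8 on day 4. The groups were apart, and Cxcr4 fell by 0.94 ± 0.27 (limma, adjusted p = 0.0237). Its call was lost without a filter on low values (0.0989) and under either fixed total (0.328 and 0.595). Without uninduced mouse 1, its highest value, the adjusted p was 0.219, and without day 4 mouse 1 it was 0.0584. On day 6 it was 26.2, 42.3, 28.9, 25.3 and 30.6 FPKM, which overlapped the uninduced mice (-0.47 ± 0.27, adjusted p = 0.293).

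Cxcr6, whose ligand is CXCL16, was 4.36, 4.31 and 3.33 FPKM in uninduced mice labelled Ifnar1-/- and 1.61, 1.48, 2.70, 2.41 and 2.26 on day 4. It fell by 0.70 ± 0.19 on day 4 (limma, adjusted p = 0.0121) and by 0.72 ± 0.19 on day 6 (0.00916), when 1 of 5 mice, at 3.34 FPKM, overlapped the uninduced group. The day 4 call was lost without uninduced mouse 1 (0.0765) or mouse 2 (0.0742), and the day 6 call without mouse 2 (0.0609). The day 4 call was also lost without a filter (0.051) and under either fixed total (0.170 and 0.573), and the day 6 call with only the 2 groups in the fit (0.0922) or with hemoglobin in a fixed total (0.0805). Cytotoxic and natural killer markers were lower for 2 of 7 genes on day 4 and 1 of 7 on day 6 in these mice, and T cell markers for 2 of 9 and 1 of 9. Their part in this was not tested.

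Cxcr5, which guides B cells to follicles along CXCL13, fell by 0.59 ± 0.17 on day 6 in mice labelled Ifnar1-/- (limma, adjusted p = 0.0158). The uninduced mice held 22.2, 27.5 and 24.5 FPKM and the day 6 mice 15.8, 19.5, 16.6, 14.5 and 14.4, with no overlap. The call was lost without uninduced mouse 2 (0.114) or mouse 3 (0.0587), with hemoglobin in a fixed total (0.123), and without a filter (0.0503). B cell markers fell with it, 4 of 7 genes with a median log2 change of -0.57, from summed levels of 545 to 551 FPKM to 326 to 464. Their part in this was not tested. An exon of Cxcr5 shares 110 bases (3.3 percent of its exons) with Bcl9l on the opposite strand, and the sources used here do not state counting by strand.

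Cx3cr1, the fractalkine receptor of patrolling monocytes, was 6.79, 6.37 and 6.36 FPKM in uninduced mice labelled Ifnar1-/- and 2.33, 5.40, 2.33, 1.66 and 3.36 on day 6. All day 6 mice were lower, and the change was -0.97 ± 0.25 (limma, adjusted p = 0.00832). It was called in each of the 8 fits that left out 1 library. On day 4 the values were 2.72, 5.47, 7.78, 8.34 and 6.51 FPKM, which spread across the uninduced level (-0.14 ± 0.25, adjusted p = 0.861). Of 6 patrolling monocyte markers, 1 was lower on day 6. Cx3cr1 shares 78 exonic bases (1.73 percent) with Gm33858, an antisense gene.

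Ccr7, which brings naive T cells and dendritic cells to lymph nodes along CCL19 and CCL21, and Cxcr3, the receptor of the interferon-inducible chemokines CXCL9 and CXCL10, were not called for pristane in either genotype. Ccr7 changes ran from -0.51 ± 0.19 (day 4, labelled Ifnar1-/-, adjusted p = 0.0987, groups apart) to -0.23 ± 0.19 (day 6, same genotype). Those of Cxcr3 ran from -0.61 ± 0.24 to -0.31 ± 0.24. The Ccr7 change on day 4 in mice labelled Ifnar1-/- was called with only the 2 groups in the fit (adjusted p = 0.00669), with library weights (0.000121) and without libraries of low mitochondrial share (0.0183). That of Cxcr3 was called with only the 2 groups in the fit (0.0035), its day 6 change with a fixed total without hemoglobin (0.0205) and without libraries of low mitochondrial share (0.0268).

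**Figure D3:**
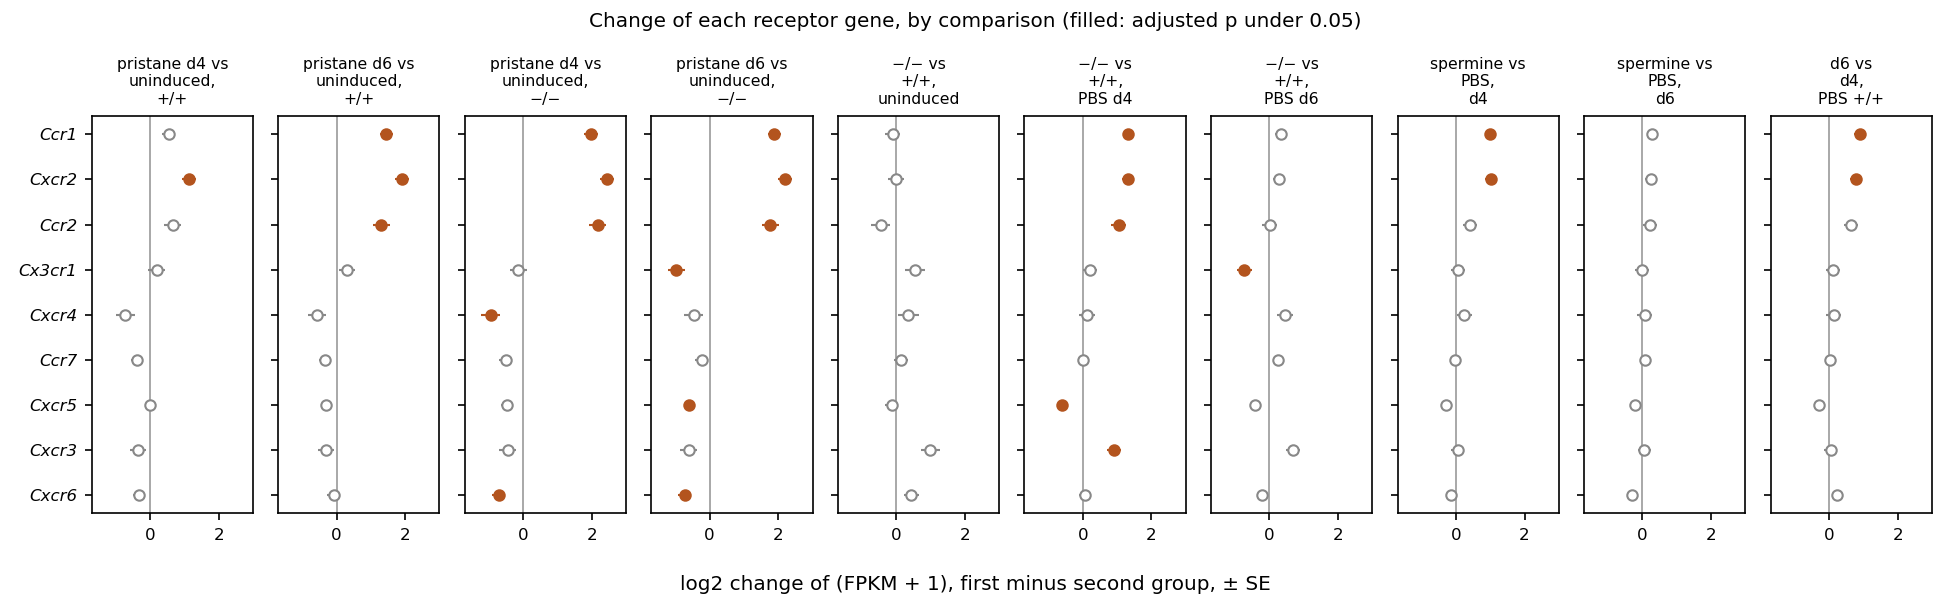
Log2 change of FPKM + 1 (x axes, first minus second group, bars ± SE) of each receptor gene (rows) in 10 comparisons (panels); filled points have a limma adjusted p under 0.05. Ccr1, Cxcr2 and Ccr2 lie to the right in both day 6 panels against uninduced mice, with Cxcr2 at 1.91 and 2.20.

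The difference between genotypes in the day 4 pristane effect passed the threshold for 2 of 9 receptors, and not in every setting. The effect was larger in mice labelled Ifnar1-/- for Ccr1, by 1.42 ± 0.27 on the log2 scale (limma interaction, adjusted p = 0.0303), and for Cxcr2, by 1.32 ± 0.29 (adjusted p = 0.0365). Of all genes 0.254 percent were called in this test (0.237 percent higher). For Ccr2 the difference was 1.504 ± 0.36 (adjusted p = 0.0628), not called. These calls lie near the threshold: Ccr1 passed in 10 of 17 fits that left out 1 library and Cxcr2 in 5 of 17, with adjusted p up to 0.0884 and 0.124. The Ccr1 call was lost without Ifnar1+/+ uninduced mouse 1 or 3, uninduced mouse 1 or 3 labelled Ifnar1-/-, or day 4 mouse 3, 4 or 5 labelled Ifnar1-/-. The Cxcr2 call was lost without those 7 mice, without uninduced mouse 2 labelled Ifnar1-/-, or without Ifnar1+/+ day 4 mouse 1, 2, 3 or 4. Neither was called by voom on recovered reads (0.0508 for Ccr1 and 0.0672 for Cxcr2), with only the 4 groups in the fit (0.0588 and 0.0863), with the replicate block (0.0503 and 0.059) or without the 7 libraries of low mitochondrial share (0.0602 and 0.175), 3 of which are Ifnar1+/+ day 4 mice. The Cxcr2 difference was 1.098 without those libraries, and its call was also lost without a filter (0.0922) and under a fixed total without hemoglobin (0.0587). Neutrophil markers lay the same way, with 7 of 7 above 0 in this test, a median of 1.38 and 0 called, and their part in the result was not tested. Ccr2 was called without Ifnar1+/+ day 4 mouse 5 (0.00665), without day 4 mouse 2 labelled Ifnar1-/- (0.04999), with library weights (0.0237) and under a fixed total with hemoglobin (0.0257). On day 6 the interaction called 0 of 9 members by limma and 0 by voom, with 2 at an unadjusted p under 0.05 (5.21 percent of genes), both lower, and 0.0254 percent of genes called. The largest was Cx3cr1 at -1.27 ± 0.35 (adjusted p = 0.413).

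Set side by side on day 4 of PBS and pristane, mice labelled Ifnar1-/- had 4 receptors higher and 1 lower than Ifnar1+/+ mice, where 18.5 percent of genes were called (9.23 percent higher, 9.26 lower). Cxcr2 was 68.5 to 99.3 FPKM in the first and 26.2 to 53.5 in the second, with no overlap and a log2 difference of 1.33 ± 0.17 (limma, adjusted p = 1.01e-06, n = 5 and 6). Ccr1 differed by 1.32 ± 0.16 (3.33e-07), again with no overlap. Ccr2 differed by 1.05 ± 0.21 (0.000587): Ifnar1+/+ mouse 5, at 26.5 FPKM, lay within the other group, and the remaining 5 at 8.55 to 14.9 lay below it. All 7 neutrophil markers were higher too (median 2.08), and 1 of 6 classical monocyte markers; their part in this was not tested.

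Cxcr3 was also higher in mice labelled Ifnar1-/- on day 4. It was 3.26, 2.91, 3.04, 3.03 and 3.49 FPKM, against 0.781 to 2.39 with a median of 1.04 in Ifnar1+/+ mice, and the difference was 0.91 ± 0.20 (limma, adjusted p = 0.00141). The groups did not overlap, as for Cxcr2 and Ccr1, which makes 3 of 9 receptors against 11.3 percent of genes. Uninduced values lay the same way, at 4.86, 4.87 and 4.24 FPKM against 2.87, 2.72 and 0.581, the last from 8 fragments. That difference was not called (0.99 ± 0.27, limma, adjusted p = 0.123). It ran from 0.57 to 1.22 in 6 fits that left out 1 library, of which 0 called it. On day 6 the difference was 0.69 ± 0.20 (adjusted p = 0.0508), not called. On day 4, T cell markers were higher for 2 of 9 and lower for 1 of 9 genes, and natural killer markers higher for 3 of 7. Their part in this was not tested. Cxcr5 was lower by 0.60 ± 0.14 (adjusted p = 0.00163), at 14.3, 22.7, 15.7, 17.0 and 18.9 FPKM against 20.1 to 34.0, with B cell markers lower for 3 of 7.

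These day 4 calls depend in part on scaling. Red cell precursor markers were lower for 4 of 5 genes in mice labelled Ifnar1-/- (median -1.92), and scaling to a fixed total raised the median of all genes by 0.45 without hemoglobin and 0.67 with it, giving 8 receptors higher and 0 lower in both. Under those scalings Cxcr5 was at 0.066 and 0.39, which is -0.39 and -0.29 relative to the median of all genes, and Cxcr2 at 1.56 and 1.66 relative to it. Without the 7 libraries of low mitochondrial share, 3 of them Ifnar1+/+ day 4 mice, the calls were 3 higher and 0 lower, Ccr2 (0.0536) and Cxcr5 (0.0762) being lost.

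On day 6, 1 of 9 receptors was called, where 3.2 percent of genes were (1.68 percent lower): Cx3cr1 was lower by 0.73 ± 0.21 (limma, adjusted p = 0.044), at 1.66 to 5.40 FPKM against 4.59 to 7.11 in Ifnar1+/+ mice. Those groups overlapped by 1 mouse, and 10 of 11 fits that left out a library lost the call, the exception being that without mouse 2 labelled Ifnar1-/- (adjusted p = 0.00801, change -0.91). Of 9 other settings only a pseudocount of 0.1 kept it (0.0351). The groups were apart for 0 of 9 receptors, against 3.05 percent of genes. Before induction 0 of 9 were called by limma and 0 by voom, with 2 at an unadjusted p under 0.05 (9.13 percent of genes) and 0.406 percent of genes called. The groups were apart, with mice labelled Ifnar1-/- higher, for Cxcr3, Cx3cr1 and Cxcr6, 3 of 9 against 17.6 percent of genes.

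Spermine raised the neutrophil receptors on day 4. Cxcr2 was 61.1, 68.9 and 97.9 FPKM (lowest, median, highest of 6) with spermine and 26.2, 33.7 and 53.5 with PBS, without overlap, a log2 difference of 1.01 ± 0.17 (limma, adjusted p = 3.96e-05). Ccr1 was 17.3, 21.5 and 26.0 FPKM against 7.54, 9.42 and 17.5, and only PBS mouse 5 reached the spermine range (1.01 ± 0.15, adjusted p = 1.70e-05). These were the 2 of 9 receptors called, where 9.13 percent of genes were (2.65 percent higher). The groups were apart for 1 of 9, against 5.01 percent of genes. Ccr2 changed by 0.40 ± 0.20 (adjusted p = 0.303), and without PBS mouse 5 it was called (0.0244). Of neutrophil markers 6 of 7 were higher (median 1.03) and Csf3r was higher by 1.03 ± 0.18. Red cell precursor markers were lower for 4 of 5 (median -3.35), and hemoglobin took 26.5 to 48.3 percent of fragments with spermine against 46.9 to 57.0 with PBS. The part of these cells was not tested.

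Scaling bears on this comparison most. A fixed total raised the median of all genes by 0.51 without hemoglobin and 0.70 with it, and called 6 and 9 of the 9 receptors higher. Relative to that median, Cxcr2 was at 1.25 and 1.34, while Cxcr5 was at -0.08 and 0.00 and Cxcr6 at -0.16 and -0.16. Both comparisons above share the same 6 PBS mice. On day 6 spermine changed 0 of 9 receptors by limma and 0 by voom, with 0 at an unadjusted p under 0.05 (16.3 percent of genes) and 0.0423 percent of genes called. The groups were apart for 0 of 9, against 1.02 percent of genes. As deposited, Cxcr2 was at 52.7, 74.5 and 90.1 FPKM against 39.6, 64.5 and 71.1 (lowest, median and highest of 6; limma, 0.24 ± 0.17, adjusted p = 0.486). Scaled to a fixed total with hemoglobin, 3 receptors were called higher, Ccr1, Ccr7 and Cxcr2, with the median of all genes at 0.42. The difference between the spermine effects of the 2 days was not called for any member by limma or voom, with 2 at an unadjusted p under 0.05 (6.92 percent of genes): Cxcr2 at -0.77 ± 0.24 and Ccr1 at -0.73 ± 0.22 (adjusted p = 0.469 for both), where 0.0169 percent of genes were called.

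Between day 4 and day 6 in PBS-treated Ifnar1+/+ mice, Ccr1 rose by 0.89 ± 0.15 (limma, adjusted p = 0.00289) and Cxcr2 by 0.79 ± 0.17 (0.0204), 2 of 9 where 0.473 percent of genes were called. Only 0.304 percent of genes were called higher. The groups overlapped for all 9 receptors, and were apart for 0.998 percent of genes. Both calls were lost under either fixed total (0.159 and 0.423 for Ccr1, 0.263 and 0.646 for Cxcr2) and with only these groups in the fit (0.168 for both). The Cxcr2 call was also lost without a filter (0.0652) and without libraries of low mitochondrial share (0.111), 3 of which are in the day 4 group and 2 in the day 6 group. Neutrophil markers lay above 0 for 7 of 7 genes, with a median of 1.05 and 1 called, and their part in the result was not tested. The Cxcr2 call was lost in 5 of 12 fits without 1 library (day 4 mouse 1, 2 or 4 or day 6 mouse 1 or 5; adjusted p up to 0.067). Ccr2 was called without day 4 mouse 5 (0.00855) or day 6 mouse 6 (0.0417).

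Ranked by group mean, Ccr1 and Cxcr2 had the same order, from day 4 mice labelled Ifnar1-/- (26.8 and 89.9 FPKM) through their day 6, spermine day 6 and spermine day 4 to PBS day 6, PBS day 4 and the uninduced groups. Neighbours in this order overlapped in range except PBS day 4 and uninduced Ifnar1+/+ mice. For Cxcr3 and Cxcr6 the uninduced mice labelled Ifnar1-/- stood highest, at 4.66 ± 0.36 and 4.00 ± 0.58 FPKM, apart from the next group. For Ccr2, Ccr7, Cxcr4, Cxcr5 and Cx3cr1 all neighbours overlapped. Spermine day 4 mice had the lowest mean of Cxcr6 (1.69 ± 0.27 FPKM). Their mean of Ccr7 (44.6 ± 10.2 FPKM) was level with those of PBS day 4 mice (44.7 ± 5.67) and day 4 mice labelled Ifnar1-/- (44.8 ± 4.01).

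Ratios within a library do not depend on scaling. The log2 ratio of Ccr2 to Cx3cr1, which sets classical against patrolling monocyte receptors, was 0.64 to 1.04 in uninduced Ifnar1+/+ mice and -0.76 to -0.10 in those labelled Ifnar1-/-. In the pristane groups its means ran from 1.35 ± 0.71 (Ifnar1+/+ PBS, day 4) to 2.84 ± 0.44 (labelled Ifnar1-/-, day 6). The log2 ratio of Cxcr2 to Cxcr4 was below 0 in all 6 uninduced mice (-2.14 to -0.27) and above 0 in all other mice (0.28 to 2.53). Many blood cell types carry Cxcr4, so in whole blood this ratio does not give the balance within neutrophils. The part of cell makeup in both ratios was not tested. These are descriptions without a test.

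**Figure D4:**
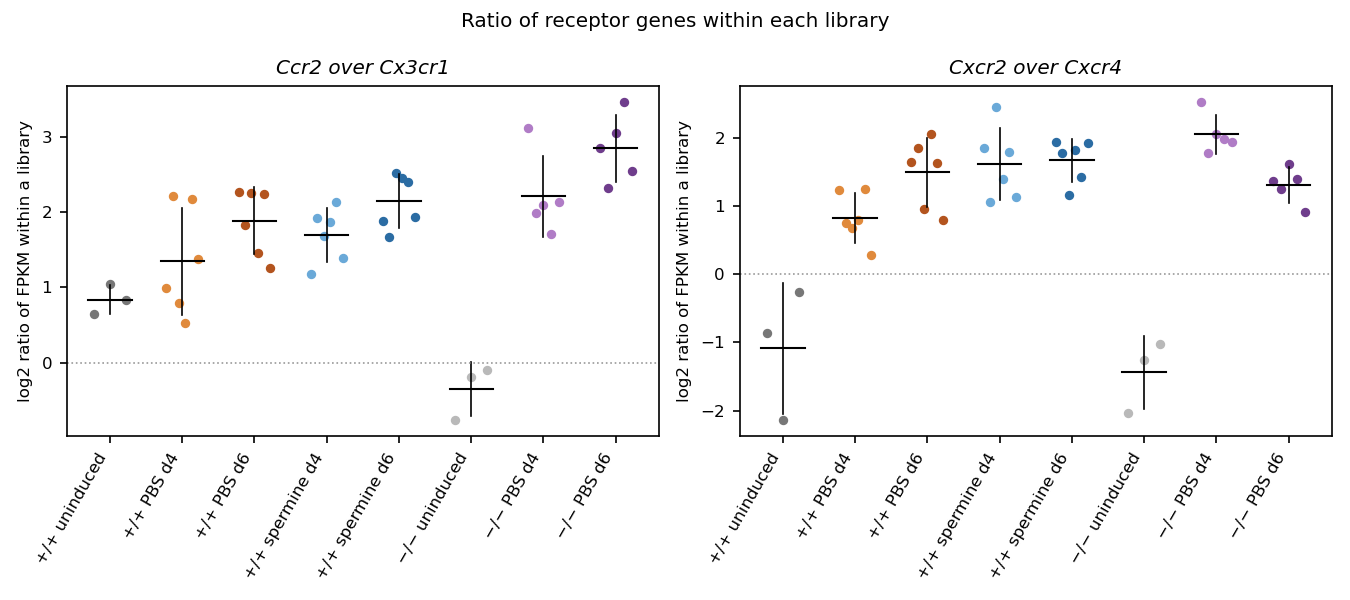
Log2 ratio of FPKM within each library (y axes) for Ccr2 over Cx3cr1 (left) and Cxcr2 over Cxcr4 (right), with 1 point per mouse by group; horizontal bars are means, vertical bars ± SD and the dotted line marks 0. The 6 uninduced mice are the only ones below 0 for Cxcr2 over Cxcr4, from -2.14 to -0.27.

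The genes whose pattern over the 40 libraries was most like each receptor were sought among 3534 genes with a mean of at least 5 FPKM. Libraries share group and cell makeup, so the values are descriptions. For Cxcr2 they were Pygl, Trem1 and Chil1 (Pearson r 0.97, 0.97 and 0.96), and r of the deviations from group means was 0.86, 0.79 and 0.73. For Ccr1 they were Il1f9, Clec4e and Cxcr2 (0.97, 0.96 and 0.96), and for Ccr2 they were Emilin2, Sirpa and Ccl9, a ligand of CCR1 (0.93, 0.91 and 0.91). Cxcr4 was most like Tsc22d3, a glucocorticoid-induced gene, with r = 0.90 over all libraries, 0.90 over deviations from group means and 0.86 without the 2 libraries farthest from the median. Cxcr5 was like Ttpal, the B cell gene Bank1 and Scd1 (0.87, 0.86 and 0.86), and Ccr7 like Acp5, Ppdpf and Igkc (0.82, 0.80 and 0.78). Cxcr3 was like Id2, Igha and Cd8a (0.79, 0.75 and 0.74). Cx3cr1 was like Ace, Adgre4 and Il10ra (0.65, 0.62 and 0.57), of which Ace is a patrolling monocyte marker in the list used here. For Cxcr6 the closest, Dnaja1, Dnajb1 and Ccl5, reached only 0.58, 0.58 and 0.57.

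Of 14 other chemokine receptor genes, 5 were abundant enough to test. Cxcr1, the other neutrophil receptor of this kind, rose on day 6 in Ifnar1+/+ mice (0.95 ± 0.24, limma, adjusted p = 0.00782) and on both days in mice labelled Ifnar1-/- (1.57 ± 0.24 and 1.31 ± 0.24). It was also higher on day 4 in mice labelled Ifnar1-/- (1.22 ± 0.20) and with spermine (0.78 ± 0.19). Ccr3, an eosinophil and basophil receptor gene, was higher in mice labelled Ifnar1-/- on day 4 (1.54 ± 0.27) and day 6 (1.07 ± 0.27). Basophil markers were higher for 4 of 5 and 3 of 5 genes on those days. Eosinophil markers were higher for 1 of 4 genes on day 4 (median log2 change -0.0092) and 2 of 4 on day 6 (median 0.75). The part of either cell type in the Ccr3 differences was not tested. Ackr1, an atypical receptor of red cells, was lower on day 4 with spermine (-2.36 ± 0.45) and in mice labelled Ifnar1-/- (-2.10 ± 0.47), at 1.17 ± 0.53 (n = 6) and 1.67 ± 0.97 FPKM (n = 5) against 12.3 ± 9.20 (n = 6), with red cell precursor markers lower for 4 of 5 in both.

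Ligand transcripts were mostly low in blood: of 38 chemokine genes listed, 35 were in the table, 9 were tested and 2, Ccl1 and Ccl26, were listed at 0 in all libraries. The 9 tested were Ccl3, Ccl4, Ccl5, Ccl6, Ccl9, Pf4, Cxcl5, Ppbp and Xcl1, of which Ccl3, Ccl5, Ccl6 and Ccl9 encode ligands of CCR1. Most of the calls were for these ligands of CCR1, which thus made up a large part of the genes that could be called. Ccl9 rose on day 6 in Ifnar1+/+ mice (1.25 ± 0.27, limma, adjusted p = 0.00253) and on both days in mice labelled Ifnar1-/- (1.69 ± 0.28 and 1.34 ± 0.28). Ccl6 rose on day 6 in Ifnar1+/+ mice (1.03 ± 0.28). It was higher on day 4 in mice labelled Ifnar1-/- (1.63 ± 0.24) and with spermine (0.85 ± 0.22). Ppbp, a platelet chemokine that binds CXCR2, was higher on day 6 in mice labelled Ifnar1-/- (0.91 ± 0.30, adjusted p = 0.041). Ccl5 fell in mice labelled Ifnar1-/- on day 4 (-1.78 ± 0.41) and day 6 (-1.55 ± 0.41), from 86.0 ± 35.6 FPKM to 23.5 ± 5.46 and 28.5 ± 9.31, and on day 4 stood above the Ifnar1+/+ level of 10.8 ± 4.98 (1.16 ± 0.34, adjusted p = 0.0155). Between genotypes on day 4, 3 of 9 ligands were higher and 1, Ppbp, was lower.

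Genes that carry the signal from these receptors were mostly not called: of 25 tested, 0 were called on day 4 and 2 higher on day 6 in Ifnar1+/+ mice, and 5 and 4 higher in mice labelled Ifnar1-/-. None was lower in these 4 comparisons. Rgs2, a regulator of G-protein signalling, rose by 1.04 ± 0.22 on day 6 in Ifnar1+/+ mice (limma, adjusted p = 0.00212). Gnai2, the main inhibitory G protein of leukocytes, rose with it by 0.54 ± 0.13. Pik3r6, a subunit of the kinase that drives neutrophil movement, rose by 0.93 ± 0.18 and 0.88 ± 0.18 in mice labelled Ifnar1-/-. Between genotypes on day 4, 7 of 25 were higher, among them Rgs2 (0.82 ± 0.19), Rac2 (0.74 ± 0.17) and Gnb2 (0.68 ± 0.19), and with spermine on day 4 only Rgs2 was (0.63 ± 0.18).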

How the data were processed

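Whole blood in 40 samples was sequenced as poly-T selected RNA, per the labels' protocols. The authors deposited FPKM values, which the main fit used unchanged. Their library scale differed from depth alone. Scaling to a fixed total with hemoglobin is the setting that divides by all fragments of a library. Their processing notes (the submitters') name HISAT2 2.0.5, fastp, DESeq2 1.20.0, CASAVA 1.8 and featureCounts 1.5.0-p3; the step that each tool served is not stated in the sources used. Gene identifiers matched GENCODE M21 for 54495 of 54532 rows. With length and library scale undone, all 686936 nonzero values were whole reads within 0.001 read, and these reads gave the depths and the voom fit.

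A gene was tested if 3 libraries or more reached 1 FPKM (11829 genes). Values as log2(FPKM + 1) were fitted in a single limma model of the 8 group means (version 3.58.1, under R 4.3.3, moderated with an intensity trend), and p values were adjusted by Benjamini-Hochberg within each contrast, called under 0.05. The pseudocount understates changes of low genes. The scripts were tested on simulated data. The receptors, lists and tests were chosen with earlier results of these data known. All 9 receptors are named, and of other lists the called genes with the 3 largest changes in a comparison; Ppbp as lower between genotypes was named after its value was seen. The 5 promoter motifs were chosen during the analysis, and GAGGAA after their matches had been seen, so 6 were searched in all. Nothing but the labels' numbering says that libraries are separate mice, and p values measure the spread between these samples, which may be technical. No 2 libraries of a group were identical (86 pairs). Alternatives were scaling each library to 1 total (hemoglobin kept or removed), adding 0.1 in place of 1, no filter, the compared groups alone, voom, library weights, a replicate block, each library left out, and 7 libraries with a mitochondrial share under 1.2 percent left out. Other software was pandas 2.3.3 and numpy 2.4.6 for the summaries, matplotlib 3.10.9 for the figures, and Python 3.11.15 to run them.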

Additional observations from a re-analysis of the deposited data

Results flagged for a closer look

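In 7 of 54 tested sets of values, 1 mouse stood apart from the rest of its group by Dixon's criterion. A set was 1 receptor in 1 group of 4 to 10 mice. For a single set chance alone gives about 1 in 20. The sets share libraries, and receptors such as Ccr1 and Cxcr2 move together, so the count cannot be read as an excess over that rate. Ccr1 was highest in Ifnar1+/+ PBS day 4 mouse 5, at 17.5 FPKM, the same mouse that was highest for Ccr2 and Cxcr2. Among day 4 mice labelled Ifnar1-/-, mouse 2 was lowest for both Ccr1 (20.4 FPKM) and Cxcr2 (68.5 FPKM). Cxcr2 was also low in Ifnar1+/+ PBS day 6 mouse 6, at 39.6 FPKM, and high in spermine day 4 mouse 3, at 97.9 FPKM. In the spermine day 6 group, Ccr2 was low in mouse 1 (17.5 FPKM) and Ccr7 high in mouse 2 (70.6 FPKM). That mouse 2 also had the lowest Cxcr2 of its group (52.7 FPKM), the highest summed neutrophil markers (10647 FPKM) and a mitochondrial share of 1.12 percent, the lowest of its group.

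The pristane effect on day 4 differed between genotypes in the limma interaction for Ccr1, by 1.42 ± 0.27 on the log2 scale, and for Cxcr2, by 1.32 ± 0.29 (adjusted p = 0.0303 and 0.0365). Both were larger in mice labelled Ifnar1-/-. Neither call held by voom (0.0508 and 0.0672), with only the groups compared (0.0588 and 0.0863), with the replicate block (0.0503 and 0.059) or without libraries of low mitochondrial share (0.0602 and 0.175). Of 17 fits that left out 1 library, 7 lost the Ccr1 call and 12 the Cxcr2 call.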

How the results depend on the processing

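A single receptor is called reversed here only where its sign turned and it was called in the main or the alternative fit. Among values of single receptors, leaving out 1 library kept the side of the threshold 1353 times, ended a call 41 times, added 10 and reversed 0; for the other settings these were 973, 45, 29 and 6. The 6 reversals all came from scaling to a fixed total: Cxcr5 between genotypes on day 4 went to 0.066 without and 0.39 with hemoglobin (neither called), Ccr7 with spermine on day 4 to 0.72 and 1.01, and, with hemoglobin, Cxcr5 and Cxcr6 with spermine on day 4 to 0.70 and 0.55. These scalings moved the median of all genes from -0.33 (day 6, labelled Ifnar1-/-) to 0.70 (spermine, day 4).

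The number of receptors called moved by over 1.5 times as follows. With a fixed total without hemoglobin it was 0 for pristane day 4 in Ifnar1+/+ mice, 3 for day 4 in mice labelled Ifnar1-/-, 8 between genotypes on day 4, 0 on day 6, 6 for spermine on day 4, 0 for day 6 against day 4 and 1 for the day 4 interaction. With hemoglobin the same counts were 0, 3, 8, 0, 9 and 0 for the first 6, with 1 for pristane day 6 in Ifnar1+/+ mice, 3 for day 6 in mice labelled Ifnar1-/- and 3 for spermine on day 6. Without a filter it was 3 for day 4 in mice labelled Ifnar1-/-, 0 between genotypes on day 6, 1 for day 6 against day 4 and 1 for the interaction. With only the groups compared it was 0 for pristane day 4 in Ifnar1+/+ mice, between genotypes on day 6, for day 6 against day 4 and for the interaction. Voom gave 0 between genotypes on day 6 and 0 for the interaction. Library weights gave 2 for pristane day 4 in Ifnar1+/+ mice and 0 between genotypes on day 6. Without libraries of low mitochondrial share it was 3 between genotypes on day 4, 1 for day 6 against day 4 and 0 for the interaction. The cause was not tested.

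The replicate block gave 0 between genotypes on day 6 and 0 for the interaction, and the other counts were within 1.5 times. Over all pairs of groups, 33 of 120 same-numbered pairs of libraries had a correlation of deviations over 0.1 (median 0.011). Between day 4 and day 6 these correlations ran from 0.05 to 0.69 with spermine. They ran from -0.36 to 0.38 in Ifnar1+/+ PBS mice and from -0.06 to 0.07 in mice labelled Ifnar1-/-. Pairs with different numbers were not set beside them, so these values cannot settle whether replicate numbers pair the mice. The main fit treated all mice as unpaired. Leaving out each library in turn gave 1 to 2 receptors for pristane day 4 and 3 to 3 for day 6 in Ifnar1+/+ mice, 3 to 6 and 4 to 6 in mice labelled Ifnar1-/-, 0 to 0, 5 to 5 and 0 to 1 between genotypes before induction, on day 4 and on day 6, 2 to 3 and 0 to 0 for spermine on days 4 and 6, 1 to 3 for day 6 against day 4, 0 to 3 for the day 4 interaction and 0 to 0 for both other interactions. Depth limits Cxcr3 and Cxcr6 most, at 8 to 118 and 9 to 104 fragments a library.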

Other observations

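The within-library log2 ratio of Ccr1 to Ccr2 had group means closer together than those of the Ccr2 to Cx3cr1 and Cxcr2 to Cxcr4 ratios. Its group means ran from -0.29 ± 0.43 (Ifnar1+/+ PBS, day 4, n = 6) to 0.35 ± 0.21 (spermine, day 4, n = 6), and in mice labelled Ifnar1-/- it was 0.00 ± 0.19 on day 4 and 0.32 ± 0.26 on day 6 (n = 5 each). Across the 40 libraries Ccr1 and Cxcr2 were alike with r = 0.96, and r of their deviations from group means was 0.75. For Ccr2 and Cxcr2 these were 0.86 and 0.37. Cxcr5 ran against Ccr2, with r = -0.66 over all libraries and -0.48 over deviations. All are descriptions of libraries that share cell makeup.

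Of the receptors too low to test, Ackr4 was listed at 0 in 32 of 40 libraries, and Ccr8 and Ackr3 in 21 each. Ccr6, a receptor of B cells and some T cells, averaged 5.63 FPKM and was called in none of the 10 comparisons between groups. Eosinophil markers were higher for 3 of 4 genes on day 4 of pristane in Ifnar1+/+ mice and for 2 of 4 in mice labelled Ifnar1-/-, and for 0 of 4 on day 6 in either genotype. Between genotypes, 1 of 4 on day 4 and 2 of 4 on day 6 were higher in mice labelled Ifnar1-/-.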
